A study of Mus musculus with 7 samples.

Results

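Transcription factors that set the fate of T cells were followed in the inflamed mouse heart. The set held 9 genes, Tbx21, Eomes, Gata3, Foxp3, Ikzf2, Bcl6, Tox, Id2 and Zeb2. They were chosen by name, with earlier results of these data known. All 9 were found among the 23420 gene rows of the table. Bulk RNA sequencing had been run on flash-frozen cardiac ventricle (the tissue label reads whole heart) in 7 libraries from untreated mice aged 3 to 6 weeks. The 4 control libraries were Ctla4+/+;Pdcd1-/- and the 3 ICI-myocarditis libraries were Ctla4+/-;Pdcd1-/-, so that every library was labelled as lacking Pdcd1 and the groups differed in 1 copy of Ctla4. ICI stands for immune checkpoint inhibitor, the class of drug whose cardiac side effect the mice model. Ctla4 and Pdcd1 encode receptors that restrain T cells. The alleles were not described in the labels as restricted to a cell type, and no wild-type animal was among the samples.

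T cells take on distinct programmes under the control of a few DNA-binding proteins. T-bet (Tbx21) directs the Th1 programme of interferon-gamma production, GATA3 the Th2 programme and FOXP3 the regulatory (Treg) programme, while BCL6 directs follicular helper cells. Eomesodermin (Eomes), ID2 and ZEB2 act in cytotoxic effector cells and natural killer (NK) cells, and TOX is required for the exhausted state of chronically stimulated CD8 T cells. Several of these genes are also used outside T cells, and whole ventricle holds heart muscle, endothelium, fibroblasts and macrophages besides lymphocytes. In bulk tissue a lower level of a transcript can come from fewer cells of a type or from less RNA per cell, and these cannot be told apart.

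Upstream sequence is shown first for 4 of the genes whose levels are compared below, because T-bet, GATA and STAT proteins are known to act on each other's genes. Each line gives the 250 bases before an annotated start of transcription, read 5′ to 3′ on the strand of the gene (RefSeq, GRCm38.p6). Capitals mark matches to any of 8 short motifs.
Tbx21, chr11:97115332-97115581, minus strand: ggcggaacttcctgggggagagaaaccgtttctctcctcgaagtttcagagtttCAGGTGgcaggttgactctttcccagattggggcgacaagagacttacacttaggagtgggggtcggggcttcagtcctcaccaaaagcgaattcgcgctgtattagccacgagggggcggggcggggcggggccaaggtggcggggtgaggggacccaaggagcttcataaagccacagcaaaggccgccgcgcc
Eomes, chr9:118477939-118478188, plus strand: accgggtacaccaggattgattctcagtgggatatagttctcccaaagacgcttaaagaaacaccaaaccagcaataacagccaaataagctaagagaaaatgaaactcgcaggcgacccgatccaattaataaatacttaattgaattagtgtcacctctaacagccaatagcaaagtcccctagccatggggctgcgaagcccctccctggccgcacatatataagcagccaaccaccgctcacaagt
Foxp3, chrX:7580233-7580482, plus strand: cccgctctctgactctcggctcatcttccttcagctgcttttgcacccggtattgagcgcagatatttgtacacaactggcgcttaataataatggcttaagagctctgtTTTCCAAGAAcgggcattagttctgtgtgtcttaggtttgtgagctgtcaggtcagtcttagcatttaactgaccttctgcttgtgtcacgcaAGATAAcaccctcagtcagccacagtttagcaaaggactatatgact
Bcl6, chr16:23981284-23981533, minus strand: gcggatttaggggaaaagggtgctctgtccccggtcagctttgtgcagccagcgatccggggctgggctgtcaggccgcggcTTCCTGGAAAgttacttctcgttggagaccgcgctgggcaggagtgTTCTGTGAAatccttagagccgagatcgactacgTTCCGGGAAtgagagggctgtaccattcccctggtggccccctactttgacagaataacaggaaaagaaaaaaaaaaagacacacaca

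The motifs were searched on both strands. They were the T-box site TCACACCT (held by 1.12% of 32841 promoters of the same length), the GATA site AGATAA (9.99%), the STAT site TTCNNNGAA (7.02%), the ZEB site CAGGTG (17.2%), the forkhead site TGTTTAC (3.17%), the NFAT site TGGAAA (18.6%), the RUNX site TGTGGT (14%) and the AP-1 site TGANTCA (6.75%). The Tbx21 window held 1 ZEB match, 196 bases before the start, and the Eomes window held none of the 8. The Foxp3 window held a GATA match 47 bases before the start and a STAT match 139 bases before it, and the STAT match overlapped an NFAT match. The Bcl6 window held 3 STAT matches, at 168, 122 and 88 bases before the start, the first of which overlapped an NFAT match. RefSeq held 12 promoters for 7 of the 9 genes. The other windows, of Gata3, Id2, Zeb2 and the remaining starts of Foxp3 and Bcl6, are not printed. For Foxp3 and Bcl6 the window with more matches is the one printed. Among the unprinted windows, those of Gata3, Id2 and Foxp3 held none of the 8 motifs. The unprinted Bcl6 window held a STAT match 118 bases before its start, and the Zeb2 windows held NFAT, STAT and AP-1 matches. The percentages above are per window. These matches describe the letters in the window and are not evidence of binding.

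Libraries held 20931730 to 39037176 reads assigned to genes. Values are read counts divided by the authors' size factor of each library, called normalized counts here. A gene was tested when it reached 10 normalized counts in at least 3 libraries, and it was called when limma's adjusted p was under 0.05 over all 15236 genes tested. The labels do not say that each library came from its own animal, so the p-values measure the spread between these libraries, which may be technical in part. The genotype could not be checked from these counts. Ctla4 had 29.2 to 113 normalized counts in controls and 251 to 373 in ICI-myocarditis, and Pdcd1 had 2.50 to 244 in controls and 1096 to 1481 in ICI-myocarditis despite its label. Control 2 stood apart from the other controls towards the ICI-myocarditis libraries. On the log2 scale its mean level of Cd3d, Cd3e, Cd3g and Cd247, the genes of the CD3 complex that defines T cells, lay at 56.0% of the distance from the other controls' mean to the ICI-myocarditis mean. It was the highest control for 6 of the 9 factors. Fold changes of the factors are therefore also given without it where that changes the call or moves the fold change by more than 1.5 times. Counts of called genes in a list are given without it where they change, and single list genes are not.

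The T-bet, eomesodermin and TOX genes rose most, Id2, Gata3 and Ikzf2 rose less, and Foxp3, Zeb2 and Bcl6 did not pass the test. Of the 9 factors, 6 were called higher in ICI-myocarditis and 0 lower, where 11.7% of all tested genes were called higher. All 9 passed the filter on low values, but Tbx21 and Eomes reached 10 normalized counts in fewer than 3 controls. Both passed only with the ICI-myocarditis libraries, so the filter favoured a difference for them. With no filter, limma adjusted p was 0.00715 for Tbx21 and 0.0249 for Eomes. For 7 of the 9, every ICI-myocarditis library lay above every control, which was so for 17.3% of all tested genes (28.6% had groups apart in either direction). The median log2 fold change of the 9 was 2.42, against -0.02 over all tested genes. Since the set was chosen with earlier results known, these numbers describe the 9 and do not test them as a set. Without control 2 the number called higher was 7, with Foxp3 added, where 14.9% of tested genes were called higher. edgeR's quasi-likelihood test on recovered reads called 4 (Tbx21, Ikzf2, Tox and Id2), where it called 10.3% of tested genes higher. DESeq2 called 6, with Foxp3 in and Eomes out, where it called 13% higher. The authors' deposited table gave 6 of the 9 an adjusted p under 0.05, the same 6 as DESeq2, where 12.9% of its genes were called higher.

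**Figure D1:**
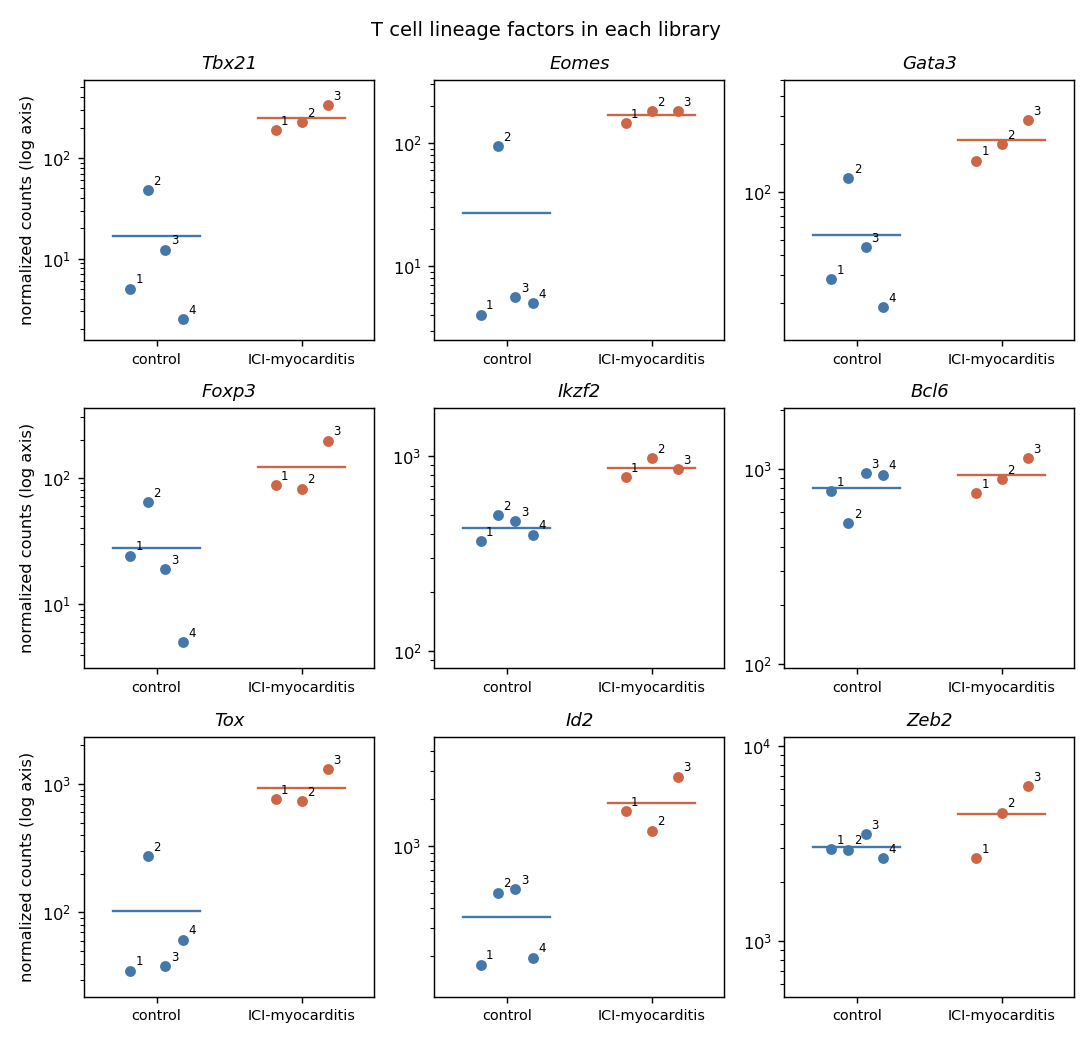
Normalized counts (log axis, a different range in each panel) of the 9 factors in the 4 control and 3 ICI-myocarditis libraries. Each point is a library marked with its replicate number, and the bar is the arithmetic mean of the group. The groups do not overlap for 7 factors and overlap for Bcl6 and Zeb2, and control 2 is the highest control for 6 factors.

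The T-box factors were examined first. Tbx21 (chr11:97098071-97115331, GRCm38) encodes T-bet, which switches on Ifng in Th1 and cytotoxic cells. It had 5.04, 48.1, 12.3 and 2.50 normalized counts in controls 1 to 4 and 189, 226 and 332 in ICI-myocarditis 1 to 3. The lowest ICI-myocarditis value stood well above control 2, the highest control, and the controls themselves ranged widely at low counts. limma put the rise of Tbx21 at 4.49 log2 units (SE 0.791, adjusted p = 0.00719), from a mean of 17.0 ± 21.2 (SD, n = 4) to 249 ± 73.9 (SD, n = 3). Only 115 of the tested genes, 0.755%, had a larger log2 fold change. The call held in all 16 alternatives. The log2 fold change of Tbx21 was 5.21 without control 2 and 3.85 in edgeR.

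Eomes (chr9:118478212-118486132), the other T-box gene, is expressed in memory and effector CD8 T cells and in NK cells. It had 4.03, 93.8, 5.58 and 5.005 normalized counts in controls and 144, 180.5 and 181.1 in ICI-myocarditis. Controls 1, 3 and 4 were near the floor, whereas control 2 lay at 82.9% of the log2 distance to the ICI-myocarditis mean. Eomes rose by 3.85 (SE 0.931, limma adjusted p = 0.0238), and by 4.85 without control 2 (limma adjusted p = 3.08e-05). This call passed in 9 of 16 alternatives. It was lost in edgeR's test and DESeq2 (log2 fold changes 2.60 and 2.64, adjusted p = 0.108 and 0.118) and when limma was run without control 1, control 3 or any 1 of the ICI-myocarditis libraries (limma adjusted p from 0.0576 to 0.0842). The authors' deposited table gave Eomes a log2 fold change of 2.64 and no p-value.

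NK cells also express both T-box genes. Of 6 NK markers, Eomes among them, 5 were tested and 2 were called higher, Klre1 and Eomes itself. Without control 2 the number was 4, without control 1 it was 0, and edgeR called 0. The summed level of the other 5 (Ncr1, Klrb1c, Klre1, Klra8 and Klrc2) ranged from 8.76 to 136 normalized counts in controls and from 110.0 to 265 in ICI-myocarditis, so that control 2, the highest control, lay within the ICI-myocarditis range. Klra8 was listed at 0 in all libraries. Ncr1, the defining NK receptor, had 6.05, 44.4, 22.3 and 5.005 normalized counts in controls and 54.2, 24.6 and 18.3 in ICI-myocarditis (limma log2 fold change 1.05, adjusted p = 0.395). Among ICI-myocarditis libraries, both T-box genes were lowest in library 1, where Ncr1 was highest. Among controls, both T-box genes and Ncr1 were highest in control 2. The part of NK cells in the rise of Eomes and Tbx21 was not tested.

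Genes of the Th1 programme moved with Tbx21. Of 7 Th1 genes, 6 were called higher (median log2 fold change 3.67), and 3 without ICI-myocarditis 3. Over all tested genes 1783 (11.7%) were called higher, and 827 without ICI-myocarditis 3. Those numbers are also the background for the gene lists below. Ifng, the cytokine under T-bet control, had 2.02, 55.5, 4.47 and 0 normalized counts in controls and 244, 283 and 583 in ICI-myocarditis (a rise of 5.96 on the log2 scale, with limma adjusted p = 0.00938). Cxcr6, a homing receptor, rose by 3.85 (limma adjusted p = 0.00753). Il12rb2, the signalling chain of the interleukin-12 receptor, had 146 to 211 normalized counts in controls and 147 to 154 in ICI-myocarditis (limma log2 fold change -0.22, adjusted p = 0.567). Stat4, the signal transducer downstream of that receptor, rose by 3.89 (limma adjusted p = 0.0122).

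Gata3 (chr2:9857078-9890034), the Th2 factor, is also needed by Treg cells and group 2 innate lymphoid cells. It had 28.2, 120.9, 44.7 and 18.8 normalized counts in controls and 157, 198 and 279.7 in ICI-myocarditis. The groups did not overlap, but control 2 came close to ICI-myocarditis 1. Gata3 rose by 2.29 (SE 0.571, limma adjusted p = 0.0267), and by 2.79 without control 2 (limma adjusted p = 0.000972). The call passed in 10 of 16 alternatives, and it was lost in edgeR's test (log2 fold change 1.96, adjusted p = 0.0563) and when limma was run without control 1, control 3 or any 1 of the ICI-myocarditis libraries (limma adjusted p from 0.0512 to 0.113). A transcript on the opposite strand of Gata3, 4930412O13Rik, had at most 7.401 normalized counts.

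The Th2 cytokines stayed at the floor. Il4 had at most 4.03 normalized counts in any library and Il13 at most 7.25, and both were under the filter. Il5 had 0, 11.1, 11.2 and 0 normalized counts in controls and 15.3, 7.25 and 20.6 in ICI-myocarditis (limma adjusted p = 0.228). Of the 7 Th2 genes 4 were tested, and Ccr8 and Ccr4, chemokine receptors that Treg cells also carry, were called higher. Ccr8 had 3.02, 8.63, 0 and 0 normalized counts in controls and 96.2, 104 and 167 in ICI-myocarditis (limma adjusted p = 0.00407). Both genes fell under the filter, so that 0 were called, when any 1 of the ICI-myocarditis libraries was left out. Il1rl1, the interleukin-33 receptor of Th2 and group 2 innate lymphoid cells, had 92.8 to 106 normalized counts in controls and 29.8 to 65.2 in ICI-myocarditis, with no overlap (limma log2 fold change -1.05, adjusted p = 0.0636). The 5 innate lymphoid markers other than Gata3 summed to 95.8 to 122 in controls and 66.5 to 92.8 in ICI-myocarditis, and most of each control sum was Il1rl1. Of the 6 markers 3 were tested, and Gata3 was the 1 called higher.

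Foxp3 (chrX:7573644-7595245) defines Treg cells, and Ikzf2 (chr1:69531214-69687245) encodes Helios, a partner found in many of them. Foxp3 had 24.2, 64.1, 19.0 and 5.005 normalized counts in controls and 87.0, 81.9 and 196 in ICI-myocarditis. Every ICI-myocarditis library exceeded every control, with control 2 close behind and ICI-myocarditis 3 far above the others. The log2 fold change was 2.42 (SE 0.725, 95% confidence interval 0.788 to 4.06) and just missed the threshold (limma adjusted p = 0.0520). It passed in 3 of 16 alternatives, namely without control 2 (log2 fold change 2.96, limma adjusted p = 0.00749), with a pseudocount of 5 (limma adjusted p = 0.0405) and in DESeq2 (adjusted p = 0.0103). The authors' deposited table gave Foxp3 a log2 fold change of 2.12 with an adjusted p of 0.0103. Genes on the opposite strand overlap the annotated Foxp3 locus, and whether counting used strand is not given in the sources used here. Among them were Ccdc22, with 246 to 369 normalized counts over the 7 libraries, and Ppp1r3f, with 75.7 to 141. Neither differed past the threshold (limma adjusted p = 0.760 and 0.491). Another such gene at Foxp3, another at Gata3 and the antisense transcripts annotated at Eomes, Ikzf2, Bcl6, Tox and Zeb2 were not analysed here.

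Ikzf2 had 365, 497, 462 and 395 normalized counts in controls and 779, 978 and 858 in ICI-myocarditis. Its controls lay close together and far from the floor, and control 2 did not stand out. Ikzf2 rose by 1.02 (SE 0.192, limma adjusted p = 0.00872), a 2.03-fold change that held in all 16 alternatives (log2 fold changes 0.94 to 1.18). Ikzf4, encoding the related Treg factor Eos, rose from a range of 21.2 to 33.3 normalized counts to one of 117 to 177 (limma log2 fold change 2.24, adjusted p = 0.00394).

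Of 8 Treg genes, 6 were called higher (median log2 fold change 2.76), and 4 without ICI-myocarditis 3. The 6 include Ctla4 itself (log2 fold change 2.40), whose copy number differs between the groups by label. The row Folr4, an older name of the folate receptor gene Izumo1r, rose by 5.29 and Tnfrsf4, which encodes OX40, by 3.13 (limma adjusted p = 0.00506 and 0.00542). Il10 had 14.1, 12.3, 0 and 2.50 normalized counts in controls and 64.5, 69.6 and 131 in ICI-myocarditis (limma adjusted p = 0.0171). Il2ra, encoding the interleukin-2 receptor alpha chain that Treg cells carry at high level, had 110.1 to 154 normalized counts in controls and 117, 162 and 309 in ICI-myocarditis, with overlap (limma log2 fold change 0.51, adjusted p = 0.362).

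Bcl6 (chr16:23965052-23988852) and Zeb2 (chr2:44983632-45117395) were abundant in every library. Bcl6 had 769, 529, 955 and 936 normalized counts in controls and 753, 889 and 1141 in ICI-myocarditis. The groups overlapped, and control 2 was the lowest of the 7. The log2 fold change was 0.23 (95% confidence interval -0.34 to 0.81, limma adjusted p = 0.590), and it passed in none of the 16 alternatives. Zeb2 had 2957, 2949, 3526 and 2670.0 normalized counts in controls and 2664, 4559.8 and 6220.45 in ICI-myocarditis. ICI-myocarditis 1 was the lowest of all libraries and ICI-myocarditis 3 the highest. The log2 fold change of Zeb2 was 0.49 (95% confidence interval -0.15 to 1.13, limma adjusted p = 0.289), with values of 0.21 without ICI-myocarditis 3 and 0.82 without ICI-myocarditis 1 (limma adjusted p = 0.761 and 0.0686).

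Follicular helper genes were tested beside Bcl6. Of 6, 5 were called higher (median log2 fold change 3.91), but only 1 without ICI-myocarditis 3, when Il21 and Pou2af1 fell under the filter and 4 were tested. Icos, a costimulatory receptor, rose by 4.66 and Il21, the cytokine of follicular helper cells, by 3.94 (limma adjusted p = 0.00921 and 0.0103). Il21 remained low, at 0 to 4.93 normalized counts in controls and 13.3 to 35.1 in ICI-myocarditis. Il21 and Pou2af1 reached 10 in no control and passed the filter only through the ICI-myocarditis libraries, as did Ccr4 and Ccr8 above. These 4 therefore had to differ, and their calls add no support. Other called genes, among them Tbx21, Eomes, Ifng, Il10 and Folr4, reached 10 in some controls but in fewer than 3. They too needed the ICI-myocarditis libraries to pass, so the filter favoured a difference there. Cxcr5, the receptor that takes these cells into B cell follicles, had 25.0 to 41.9 normalized counts in controls and 43.0 to 71.8 in ICI-myocarditis (limma log2 fold change 0.75, adjusted p = 0.187). Bcl6 is also a factor of germinal centre B cells. The 5 B cell markers summed to 36.3 to 116 in controls and 148 to 453 in ICI-myocarditis, a sum made mostly of Cd22 in ICI-myocarditis, the 1 marker called higher, while Ms4a1 and Pax5 reached at most 27.9 in any library.

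Tox (chr4:6686353-6991557) and Id2 (chr12:25093799-25097140) were higher in each ICI-myocarditis library than in any control. Tox had 35.3, 274, 38.0 and 61.3 normalized counts in controls and 759, 735 and 1292 in ICI-myocarditis. Control 2 was several times above the other controls and still below every ICI-myocarditis library. Tox rose by 3.68 (SE 0.643, limma adjusted p = 0.0071), and the call held in all 16 alternatives (log2 fold changes from 3.15 in edgeR to 4.33 without control 2). All 6 exhaustion genes were called higher (median log2 fold change 4.40), and 3 without ICI-myocarditis 3. Among them the inhibitory receptor genes Tigit, Lag3 and Havcr2 rose by 4.77, 4.68 and 4.53 (limma adjusted p = 0.00424, 0.00414 and 0.00552). Tox2, a paralogue, rose by 1.67 (limma adjusted p = 0.0371), past the threshold under 8 alternatives out of 16.

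Id2 encodes an inhibitor of E proteins needed by innate lymphoid cells, NK cells, effector T cells and some dendritic cells. It had 175, 503, 529 and 194 normalized counts in controls and 1659.6, 1253 and 2755 in ICI-myocarditis. The controls formed a low pair (1 and 4) and a higher pair (2 and 3), both below all ICI-myocarditis libraries. Id2 rose by 2.53 (SE 0.454, limma adjusted p = 0.00766), and the call held in all 16 alternatives. Of 6 tested effector genes, 5 were called higher (median log2 fold change 4.71), and at least 4 with any 1 library left out. Nkg7, a granule protein gene, rose by 5.99 and Prf1, encoding perforin, by 5.39 (limma adjusted p = 0.00706 and 0.00424). S1pr5, which ZEB2 and T-bet maintain in effector and NK cells, had 9.87 to 37.5 normalized counts in controls and 13.8 to 24.6 in ICI-myocarditis (limma adjusted p = 0.968).

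Macrophages and dendritic cells also express Id2 and Zeb2. All 5 macrophage markers were called higher, and their summed level ranged from 6940 to 8414 normalized counts in controls and from 25854 to 50224 in ICI-myocarditis. Of 4 dendritic cell markers, 2 were called higher (3 without control 2). The sum of the 4 ranged from 679 to 2201 in controls and from 1572 to 2255 in ICI-myocarditis. Endothelial markers moved the other way, with 2 of 5 called lower and sums of 20390.0 to 43789 and 14140.0 to 19552. The 4 fibroblast markers, 1 of them called higher, summed to 21716 to 35567 and 39210.4 to 75371. The 5 heart muscle markers summed to 1007390 to 1806210 and 803554 to 1094030, so the labelled tissue was present in every library. Of these 5, 1 was called higher and 0 lower, and without control 2 the numbers were 1 and 1. Of 5 thymus genes, none passed the filter, Foxn1 was listed at 0 in all libraries, and the sum was at most 16.7. The part of these cells in the levels of the 9 factors was not tested.

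**Figure D2:**
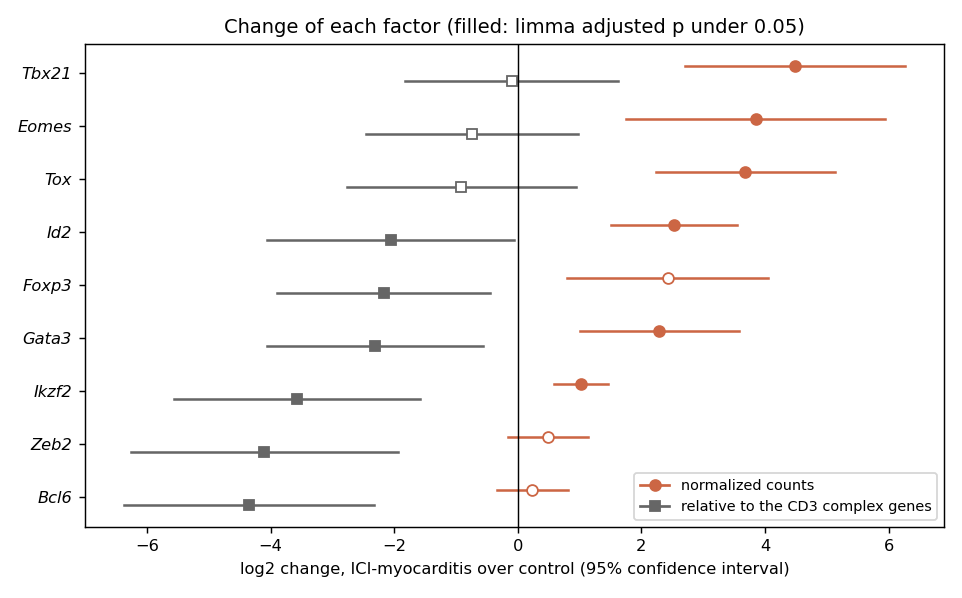
Log2 change of each factor, ICI-myocarditis over control, with its 95% confidence interval from limma. Circles show normalized counts and squares the same values after subtraction of the library's mean log2 level of Cd3d, Cd3e, Cd3g and Cd247, with filled symbols for calls. Intervals of the squares are too narrow, because all genes share the subtracted level and its error. Tbx21, Eomes and Tox are called in the first reading and not in the second, where they lie at -0.10, -0.74 and -0.91.

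The factors were then read against the T cell content of each library, by subtracting the mean log2 level of the 4 CD3 complex genes from every gene and repeating the fit. The CD3 genes themselves summed to 110, 637, 138 and 76.3 normalized counts in controls and to 3386, 2933 and 4214 in ICI-myocarditis. Of these sums, Cd247 gave 73.6, 143, 90.4 and 47.5 in controls and 447, 386 and 466 in ICI-myocarditis. Relative to the mean of the CD3 genes, 96.1% of all tested genes were called lower and the median change was -4.61. A lower call is therefore the background here, and a change of 0 is one that matched that mean. Of the 9 factors 6 were called lower and 0 higher (0.0394% of tested genes were called higher). All genes share the subtracted level and its error, which comes from 7 libraries, but limma pools the genes as if independent. The adjusted p of this fit are therefore too small and its intervals too narrow, and its calls are given as a description.

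Tbx21 had 4.59, 7.56, 8.87 and 3.28 normalized counts per 100 of the summed CD3 genes in controls and 5.59, 7.71 and 7.87 in ICI-myocarditis. These ranges overlapped, and the relative log2 change was -0.10 (95% confidence interval -1.82 to 1.62, limma adjusted p = 0.909). The interval is wide, so the result does not show that the ratio was equal. Cd247 also made up most of the CD3 sum in every control other than control 2, but not in ICI-myocarditis. The overlap of the ranges therefore does not show that Tbx21 matched Cd3d, Cd3e and Cd3g. Eomes had 3.67, 14.7, 4.03 and 6.56 per 100 in controls and 4.26, 6.15 and 4.30 in ICI-myocarditis (relative log2 change -0.74, limma adjusted p = 0.404). Tox had 27.4 to 80.3 per 100 in controls and 22.4 to 30.7 in ICI-myocarditis (relative log2 change -0.91, limma adjusted p = 0.341), and it was called lower without control 2 (-1.002, limma adjusted p = 0.0137). After subtraction of the mean log2 level, Tox lay lower in every ICI-myocarditis library than in any control, as did 96.2% of all tested genes. These 3 changes depended on the genes that set the T cell level. With Cd3e alone they were -1.12 for Tbx21, -1.76 for Eomes and -1.93 for Tox (limma adjusted p = 0.398, 0.183 and 0.179), and with 10 T cell markers they were -0.01, -0.65 and -0.82.

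Gata3 and Foxp3 were called lower relative to the mean of the CD3 genes. Of those, Cd3d, Cd3e and Cd3g had log2 fold changes of 5.17, 5.61 and 5.20, whereas Cd247 had 2.38, close to the 2.29 of Gata3 and the 2.42 of Foxp3. Gata3 had 25.7, 19.0, 32.3 and 24.6 normalized counts per 100 in controls and 4.62, 6.75 and 6.64 in ICI-myocarditis, with a relative log2 change of -2.30 (SE 0.891, limma adjusted p = 0.0103). This call was lost without ICI-myocarditis 1 (limma adjusted p = 0.0661). Foxp3 had 22.0, 10.1, 13.7 and 6.56 per 100 in controls and 2.57, 2.79 and 4.66 in ICI-myocarditis, with a relative log2 change of -2.17 (SE 0.879, limma adjusted p = 0.0144). That call was lost without control 1, ICI-myocarditis 1 or ICI-myocarditis 2 (limma adjusted p = 0.0643, 0.0773 and 0.0691). Neither control range reached the ICI-myocarditis range, as was so for 96.2% of all tested genes. Id2 had a relative change of -2.06 (limma adjusted p = 0.0458) that passed in 7 of 16 alternatives.

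Ikzf2, Bcl6 and Zeb2 had the lowest values of the 9 on this scale. Their relative log2 changes were -3.57, -4.35 and -4.10 (limma adjusted p = 0.000512, 3.53e-05 and 0.000246), and -4.24, -5.29 and -4.86 without control 2. In controls, Zeb2 had 463 to 3498 normalized counts per 100 of the CD3 genes and Ikzf2 had 78.1 to 518, so both were present in libraries with few T cell reads. Bcl6 had 83.1 to 1226 per 100 in controls and 22.2 to 30.3 in ICI-myocarditis. For each of these 3 genes control 2, with the most CD3 reads among controls, gave the lowest control value.

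Levels were compared between genes per kb of annotated exon. In ICI-myocarditis the order of mean normalized counts per kb was Id2 (775 ± 319, SD, n = 3), Zeb2 (225 ± 89.2), Bcl6 (138 ± 29.4), Tox (122 ± 41.4), Tbx21 (100.1 ± 29.7), Ikzf2 (75.0 ± 8.63), Gata3 (53.1 ± 15.8), Eomes (40.6 ± 5.07) and Foxp3 (26.6 ± 14.1). Of neighbours in this order, only Id2 (514 to 1130) had a range clear of the next gene, Zeb2 (134 to 312). In controls Zeb2 (152 ± 18.03, SD, n = 4), Id2 (144 ± 78.7) and Bcl6 (119 ± 29.4) were highest, Ikzf2 followed (37.0 ± 5.21), and Tox, Gata3, Tbx21, Eomes and Foxp3 had means from 6.14 to 13.4. Those 5 overlapped one another in controls.

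Ratios of 1 factor to another within a library do not depend on the size factor, and they are given as a description with no test. Tbx21 over Gata3, per kb, was 0.286, 0.636, 0.440 and 0.213 in controls and 1.93, 1.83 and 1.90 in ICI-myocarditis. The ICI-myocarditis libraries were nearly equal and all above the controls, including control 2. A ratio to Gata3 that was higher in every ICI-myocarditis library was found for 2.38% of tested genes. Tbx21 over Foxp3 was 0.383, 1.38, 1.19 and 0.920 in controls and 4.00, 5.08 and 3.11 in ICI-myocarditis, again with no overlap, as for 1.54% of tested genes. Tbx21 over Eomes overlapped between groups, at 0.835 to 3.67 and 2.09 to 3.06. So did Gata3 over Foxp3, at 1.34 to 4.31 and 1.64 to 2.78, and Foxp3 over Cd4, the coreceptor gene of helper and Treg cells, at 0.0979 to 0.611 and 0.180 to 0.253.

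**Figure D3:**
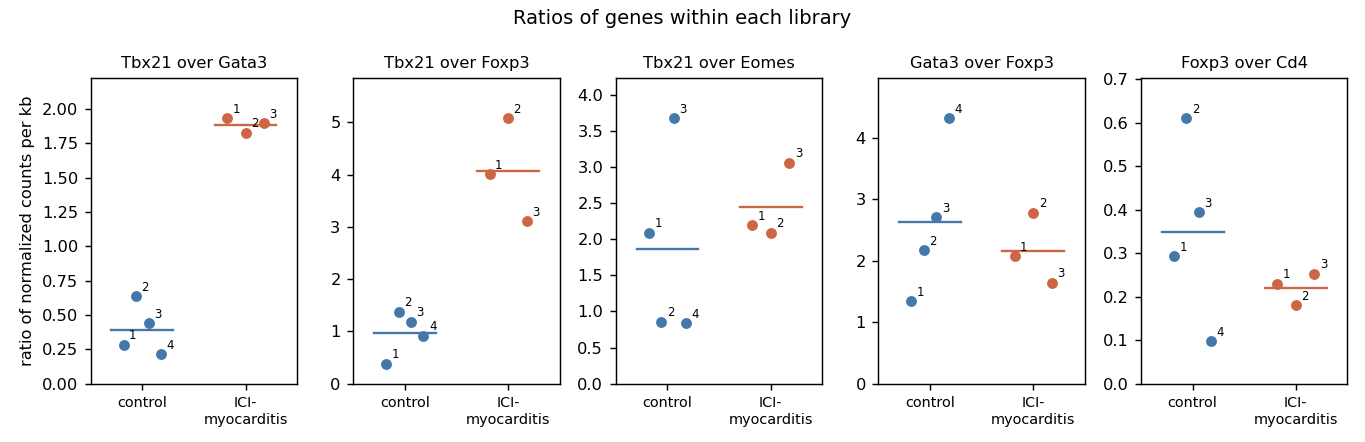
Ratios of normalized counts per kb in each library (linear axes from 0), with 1 point per library marked by its replicate number and bars at the group means. Tbx21 over Gata3 and Tbx21 over Foxp3 stand above every control in the 3 ICI-myocarditis libraries, and the other 3 ratios overlap.

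Other lineage factors were read from a list of 36 genes, of which 35 had a row in the table. Of these 15 were called higher and 0 lower, with a median log2 fold change of 0.53, where 11.7% of all tested genes were called higher. Without control 2 the numbers were 17 higher and 1 lower, and without ICI-myocarditis 3 the number called higher was 8. Those called were Ikzf3 (4.59), Stat4 (3.89), Gfi1 (3.57), Batf (3.11), Ikzf1 (3.01), Runx3 (2.88), Bcl11b (2.46), Ikzf4 (2.24), Tcf7 (2.14), Runx1 (2.11), Irf4 (2.07), Nr4a2 (1.92), Tox2 (1.67), Nfatc1 (1.14) and Nfatc2 (0.87), given as log2 fold changes. Bcl11b, which holds cells in the T lineage, had 93.8, 180.1, 80.4 and 100.1 normalized counts in controls and 437, 534 and 914 in ICI-myocarditis (limma adjusted p = 0.00394). Batf, a partner of IRF4 in effector and exhausted cells, had 14.1, 90.1, 22.3 and 21.3 in controls and 251, 222 and 279.7 in ICI-myocarditis (limma adjusted p = 0.00778). Tcf7, which marks naive and stem-like T cells, had 40.3, 70.3, 39.1 and 27.5 in controls and 162, 156 and 261 in ICI-myocarditis (limma adjusted p = 0.00719).

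The Th17 programme gave little signal. Rora, a nuclear receptor of Th17 and innate lymphoid cells, had 582 to 711 normalized counts in controls and 490.1 to 614 in ICI-myocarditis (limma adjusted p = 0.573). The Th17 cytokine genes Il17a and Il22 were listed at 0 in all 7 libraries, and Il17f had at most 1.25 normalized counts. Ccr6, a Th17 homing receptor, had at most 1.23 in controls and 4.09, 13.8 and 14.5 in ICI-myocarditis and was under the filter. It passed the threshold in the 2 alternatives that gave it an adjusted p, DESeq2 among them. Of the 6 Th17 genes 1 passed the filter and was tested, Il17re (limma adjusted p = 0.956).

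**Figure D4:**
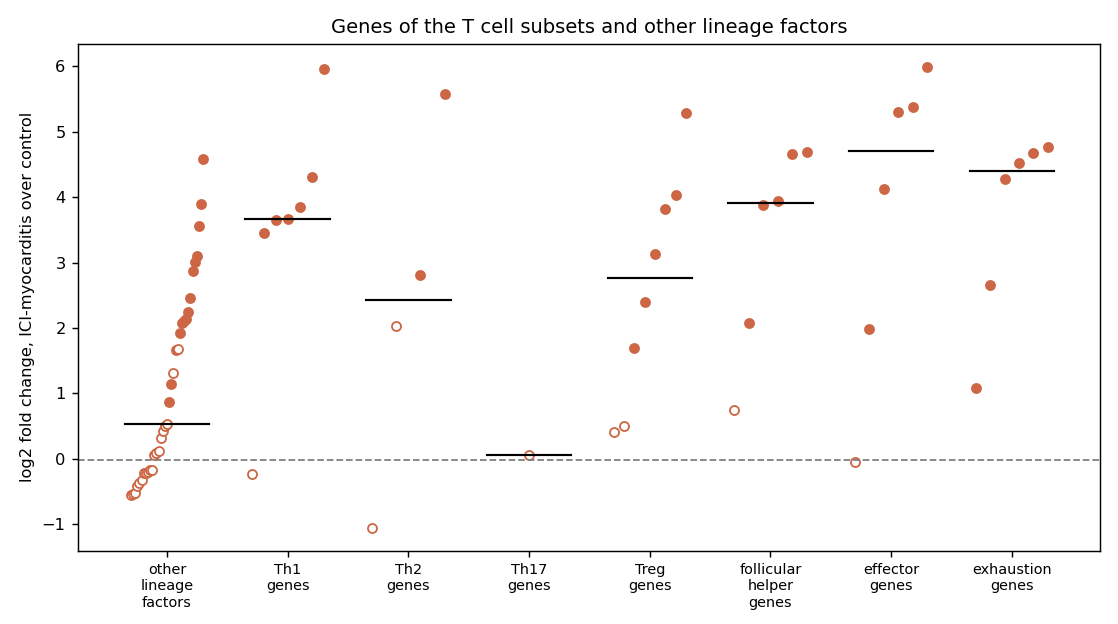
Log2 fold change, ICI-myocarditis over control, of each tested gene in 8 lists of T cell genes. Filled points were called higher by limma, bars are list medians and the dashed line is the median of all tested genes, -0.02. The exhaustion list is called in full (6 of 6), whereas 20 of 35 other lineage factors and the 1 tested Th17 gene are not called.

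For each factor the genes with the most similar pattern were found by Pearson's r of log2 normalized counts over the 7 libraries, among all tested genes with an established name. They are given as a description, since the libraries fall into 2 groups and share their depth. Tox was most like Faah, Plcb2 and Cd3g (r = 0.997, 0.997 and 0.995). Tbx21 was most like H2-Q4 and Tnfsf14 (both 0.999), Gata3 like Pydc3, Ikbke and Cxcl10 (each 0.997), Eomes like Dok2 (0.996), Foxp3 like Ripk3 (0.997) and Id2 like Stxbp3a (0.993). Ikzf2, Zeb2 and Bcl6 had their closest matches in Mag, Eea1 and Desi2, at lower values (0.991, 0.980 and 0.977). H2-Q4 belongs to a family of near-identical genes, so its reads may be shared.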

How the data were processed

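One table of the whole series was used, with a column for each of 7 libraries. The values per library were deposited by the authors as a signal, namely reads counted on each gene over the library's size factor. STAR 2.7.3 and GRCm38 are named in the submitters' processing notes, and the counting program, annotation and use of strand are not given in the sources used here. The authors' own comparison stands in the same deposited table as a log2 fold change, its error, a test statistic (a score), a p-value and its adjusted form. Values were whole multiples of 1 step (within 0.01 of a read) in all libraries, so reads were recovered, with weaker support in control 1, whose step of 1.01 is close to 1. No column of another sample was present. Left out were 27 rows with date-like or repeated names, which held 0.143% of reads.

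Genes were tested in R 4.3.3 by limma 3.58.1, with trend and robust variance, on log2 of the normalized count plus 1, and Benjamini-Hochberg adjustment over the 15236 genes with at least 10 in at least 3 libraries. Fold changes are differences of mean log2 values on that scale, so they are not ratios of the means, and a larger pseudocount lowers those of low genes. The second fit subtracted the mean log2 level of Cd3d, Cd3e, Cd3g and Cd247, or, as alternatives, that of Cd3e alone or of 10 T cell markers. edgeR 4.0.16 and DESeq2 1.42.0 on the recovered reads were alternatives, as were other pseudocounts (0.5 and 5), filters (none and 50) and scalings, leaving out each library, and a replicate block. The fit was first tested on simulated data with 200 changed genes. The members, the gene lists and the rule for named genes were chosen with earlier results of these data known. The rule names all members, the CD3, Cd4, Cd8a, Ctla4 and Pdcd1 genes, called list members, the 3 lowest p-values of each list, list genes under the filter, and the most alike genes. Other list genes named were chosen after their values were seen. Counting error matters at this depth for the low genes, and the variation among libraries for the rest. Exon lengths and positions come from GENCODE M21 and promoters from RefSeq, both on GRCm38. A few list genes are counted in their lists and not reported here by name.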

Additional observations from a re-analysis of the deposited data

Results flagged for a closer look

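In the 4 controls, 19 sets of values were examined for a library far from the rest (each factor on the log2 scale and relative to the CD3 genes, and the CD3 level), and chance marks about 1 in 20. Control 2 was marked in 4. For Eomes its gap to the next control was 0.909 of the group's range, on the high side. Relative to the CD3 genes it lay on the low side for Zeb2 (0.895), Ikzf2 (0.830) and Bcl6 (0.830). The last 3 values share the CD3 level of control 2 and are not independent.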

How the results depend on the processing

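Tbx21, Ikzf2, Tox and Id2 kept direction and call in all 16 alternatives, and Bcl6 and Zeb2 were called in none. The number of the 9 factors called ranged from 4 to 7. Over all genes 2392 were called, 983 to 3333 with 1 library left out (lowest without ICI-myocarditis 3, highest without control 2), 2125 by edgeR and 3436 by DESeq2. Scaling by library total moved the median log2 fold change of all genes from -0.02 to 0.14. Relative to the CD3 genes, 6 factors were called, 3 to 7 with 1 library left out. Over all genes 14655 were called in that fit, and 14182 to 14903 with 1 library left out. The relative change of Tbx21, -0.10, ranged from -0.28 to 0.12 with 1 library left out, with 0.12 without control 3 and 0.07 without ICI-myocarditis 1, neither past the threshold, and it was -1.12 with the T cell level taken from Cd3e. The cause of these changes was not tested, beyond the smaller number of samples.

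The replicate numbers 1 to 3 occur in both groups, and the deviations of same-numbered libraries had r of -0.27, -0.21 and -0.08. Pairs with different numbers had r from -0.48 to 0.45, so these values cannot show whether equal numbers mark a pairing. With the replicate block, in which control 4 adds nothing to the group difference, 1777 genes and 6 of the 9 factors were called. Relative to the CD3 genes, 13998 genes and 3 of the 9 factors were called with the block. Gata3, Foxp3 and Id2 were then not called (limma adjusted p = 0.0667, 0.0521 and 0.174). Low counts limit Tbx21, Eomes and Foxp3 in controls, where single libraries held as few as 2 or 4 reads.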

Other observations

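Some factors induced by T cell receptor signalling or blood flow ranged widely between the controls. Nr4a1, an immediate early gene, had 3455, 1229.9, 123 and 2696 normalized counts in controls and 1149, 523 and 732 in ICI-myocarditis. Nr4a3 had 529, 155, 35.7 and 199 in controls and 135, 144 and 254 in ICI-myocarditis, and Klf2, a flow-responsive factor, had 5885, 2366, 1447 and 3194 in controls and 3080, 2450 and 1906 in ICI-myocarditis. For all 3 genes control 1 was the highest and control 3 the lowest of the controls, and none passed the test (limma adjusted p = 0.774, 0.932 and 0.775).

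In ICI-myocarditis Tbx21 held a narrow ratio to Cd8a, the coreceptor gene of cytotoxic T cells, and the ratio of Eomes varied more. Tbx21 over Cd8a, per kb, was 0.108, 0.131 and 0.125 there and 0.209, 0.123, 0.423 and 0.162 in controls. Eomes over Cd8a was 0.0492, 0.0628 and 0.0408 in ICI-myocarditis and 0.100, 0.143, 0.115 and 0.195 in controls, with no overlap and no test made. The share of all genes with such a ratio was not computed. Cd8a itself rose by 5.43 log2 units, against a median of -0.02 over all tested genes. A lower ratio to Cd8a is therefore not particular to Eomes. Zeb1, the paralogue of Zeb2, lay lower in every ICI-myocarditis library (2375, 3159 and 3079 normalized counts) than in any control (3616 to 4046), without passing the test (log2 fold change -0.42, limma adjusted p = 0.173).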
